A study of Mus musculus with 8 samples.

Results

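The cytosolic ribosomal protein genes were examined in pro-B cells from mice with and without HDAC7, using maps of 5-hydroxymethylcytosine (5-hmC). These genes encode the protein components of the cytoplasmic ribosome. They were taken from the GENCODE annotation of the GRCm38 (mm10) mouse genome as the protein-coding genes whose symbol begins with Rpl or Rps and a digit, together with Rplp0, Rplp1, Rplp2 and Rpsa. Only chromosomes 1 to 19 were used, and the 8 kinase genes of the Rps6k family, the 6 symbols that carry -ps (pseudogene-like copies) and 4 genes outside chromosomes 1 to 19 were left out. The rule gave 82 genes out of 20807 protein-coding genes on these chromosomes. Of the 82, 40 encode large-subunit proteins, 30 small-subunit proteins and 3 the proteins of the ribosomal stalk. The other 9 were 8 paralogues (Rpl10l, Rpl22l1, Rpl36al, Rpl39l, Rpl3l, Rpl7l1, Rps27l and Rps27rt) and 1 gene, Rps19bp1, whose symbol meets the rule although it encodes a protein that binds RPS19 and not a ribosomal subunit.

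The labels form 4 groups, and the peak lists of 2 of them were used. Cells were sorted from bone marrow of C57BL/6 mice aged 4 to 6 weeks as B220+CD43+IgM- pro-B cells. The 2 HDAC7-deficient libraries came from Hdac7 fl/- mice carrying mb1-Cre, in which the recombinase sits in the Cd79a gene and so acts within the B lineage. The 2 wild-type libraries came from littermates that, by the methods of the study, were Hdac7+/-, so both groups carried the minus allele and the controls had 1 working copy. Whether the controls also carried Cre was not stated. In each library, DNA bearing 5-hmC was pulled down with an antibody and sequenced (hMeDIP-seq), and the deposited list gives the start and end of each peak with no height. The 4 input libraries were not analysed here. Nothing in the labels says whether the libraries came from separate animals, so the spread between them may be technical.

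Ribosomes are built from ribosomal RNA and about the same set of proteins in every cell, and the genes for these proteins are short, highly transcribed housekeeping genes with CpG-rich promoters. Many introns of these genes carry snoRNAs, small RNAs that guide the chemical modification of ribosomal RNA. 5-hmC is made from methylated cytosine by the TET enzymes and is found mostly in CpG context, in gene bodies, enhancers and the edges of CpG islands. HDAC7 is a class IIa histone deacetylase that represses genes of other lineages in pro-B cells.

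For each gene, peaks were counted in a window that spans the gene and 2 kb on each side, and the bases of the window under a peak were summed. The libraries held 1305200, 1409143, 1414862 and 1371221 peaks genome-wide, in the order wild-type 1, wild-type 2, HDAC7-deficient 1 and HDAC7-deficient 2, which is kept wherever values are given without a library name. The read depth behind them is unknown. HDAC7-deficient library 2 stood apart in where its peaks lay, since they covered 11.6% of chromosomes 14 to 19 and 11% of the X chromosome, against 8.94% to 10.4% and 4.01% to 6.39% in the other libraries. The window of Hdac7 itself held 60, 47, 56 and 47 peaks. Such a pulldown does not read the genotype, so these counts do not check the deletion.

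Several stretches under peaks at these genes are printed here, with each CpG in capitals, because they show how different the sequences under the peaks were. They are the plus strand of GRCm38 and lie outside every annotated exon. Each is the part of the region covered in all libraries that form it, or the whole region where peaks were gained or lost. Distances before the start run from the middle of the stretch to the start of the principal transcript. The Rps16 stretch was chosen as the CpG-rich region nearest a start site, Rps26 as a repeat, Rps15a as a stretch with no CpG inside the widest peak, Rps27a as the short CpG-dense case, Rpl22 as a gained region and Rpl35 as a lost one.
Rps16, 194 bases before the start, chr7:28350357-28350559: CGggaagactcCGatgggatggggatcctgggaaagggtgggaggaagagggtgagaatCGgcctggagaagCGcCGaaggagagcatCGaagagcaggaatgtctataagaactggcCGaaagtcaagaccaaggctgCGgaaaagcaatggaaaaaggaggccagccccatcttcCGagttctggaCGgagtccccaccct
Rps26, 639 bases before the start, chr10:128627292-128627482: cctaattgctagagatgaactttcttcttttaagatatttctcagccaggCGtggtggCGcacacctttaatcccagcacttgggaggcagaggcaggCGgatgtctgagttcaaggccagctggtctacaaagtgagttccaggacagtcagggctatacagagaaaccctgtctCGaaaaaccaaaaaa
Rps15a, intron, chr7:118112741-118112941: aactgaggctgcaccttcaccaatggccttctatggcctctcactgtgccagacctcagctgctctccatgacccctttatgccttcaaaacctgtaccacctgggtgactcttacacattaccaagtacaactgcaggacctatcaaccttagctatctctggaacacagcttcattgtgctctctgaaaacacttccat
Rps27a, 711 bases before the start, chr11:29548782-29548859: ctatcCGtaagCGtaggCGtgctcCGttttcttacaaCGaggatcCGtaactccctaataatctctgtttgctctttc
Rpl22, gained, 1448 bases before the start, chr4:152324319-152324518: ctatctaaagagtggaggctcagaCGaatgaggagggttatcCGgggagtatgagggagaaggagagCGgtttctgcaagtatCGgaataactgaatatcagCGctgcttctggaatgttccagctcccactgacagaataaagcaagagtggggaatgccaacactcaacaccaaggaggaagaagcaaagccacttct
Rpl35, lost, intron, chr2:39003354-39003551: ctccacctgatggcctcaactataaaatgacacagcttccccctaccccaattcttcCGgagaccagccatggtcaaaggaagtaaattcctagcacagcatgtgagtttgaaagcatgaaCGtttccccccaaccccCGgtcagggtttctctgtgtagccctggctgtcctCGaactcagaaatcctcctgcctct

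The Rps16 stretch is 203 bp long with 10 CpG and a GC content of 57.1%, and the Rps27a stretch holds 6 CpG in 78 bp. The Rps15a stretch, 201 bp long, holds no CpG. All bases of the Rps26 stretch are soft-masked in the genome sequence, which marks them as repeats, and 84.1% of the Rps15a stretch is. The Rpl35 stretch also lies in Wdr38, and the Rps27a stretch in Clhc1. Of the 95 regions at ribosomal protein genes that had a peak in all 4 libraries, 75 had bases shared by all 4 and 20 had none. The shared stretches ranged from 8 to 384 bp with a median of 89 bp, and 25 of the 75 (33.3%) held no CpG. No such share was computed for other coding genes.

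Nearly all ribosomal protein genes carried 5-hmC peaks, as did nearly all protein-coding genes. A peak lay in the window in all 4 libraries at 75 of the 82 genes, beside 19860 of 20807 coding genes. Among the 13720 coding genes with windows no longer than the longest ribosomal protein window, the number was 12793. Of the 82 genes, 5 had a peak in 3 libraries, Rplp1 in 2 and Rps6 in 1. Peaks were lacking altogether at 347 of the 20807 coding genes and at none of the 82. The genes are short, with a median length of 3399.5 bp against 17629 bp for all protein-coding genes, and their windows ran from 4374 to 35449 bp. In all, 445, 466, 447 and 396 peaks fell in the 82 windows and covered 67673, 84381, 65107 and 68948 bases. Wild-type library 2 was the highest on both measures, while the lowest was HDAC7-deficient library 2 for peaks and HDAC7-deficient library 1 for bases. As 44 of the 82 windows also overlap another protein-coding gene, a peak there cannot be assigned to the ribosomal protein gene alone.

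The share of window bases under peaks was 9.81%, 12.2%, 9.44% and 10% for the ribosomal protein genes and 9.44%, 10.7%, 9.26% and 10.4% for all protein-coding genes. The ribosomal protein genes thus had 1.04, 1.14, 1.02 and 0.96 times the share of coding genes, a mean of 1.04 ± 0.0742 (SD, n = 4 libraries). No difference in share between ribosomal protein and coding genes could be told (exact two-sided sign-flip permutation test of the differences within libraries, p = 0.5). The smallest p that 4 libraries allow is 0.125. By gene, 41, 48, 42 and 41 of the 82 genes lay above the median protein-coding gene of their library. Against the 13720 coding genes with windows no longer than the longest ribosomal protein window, the ratios were 0.989, 1.11, 0.973 and 0.969 (exact sign-flip permutation p = 1).

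**Figure D1:**
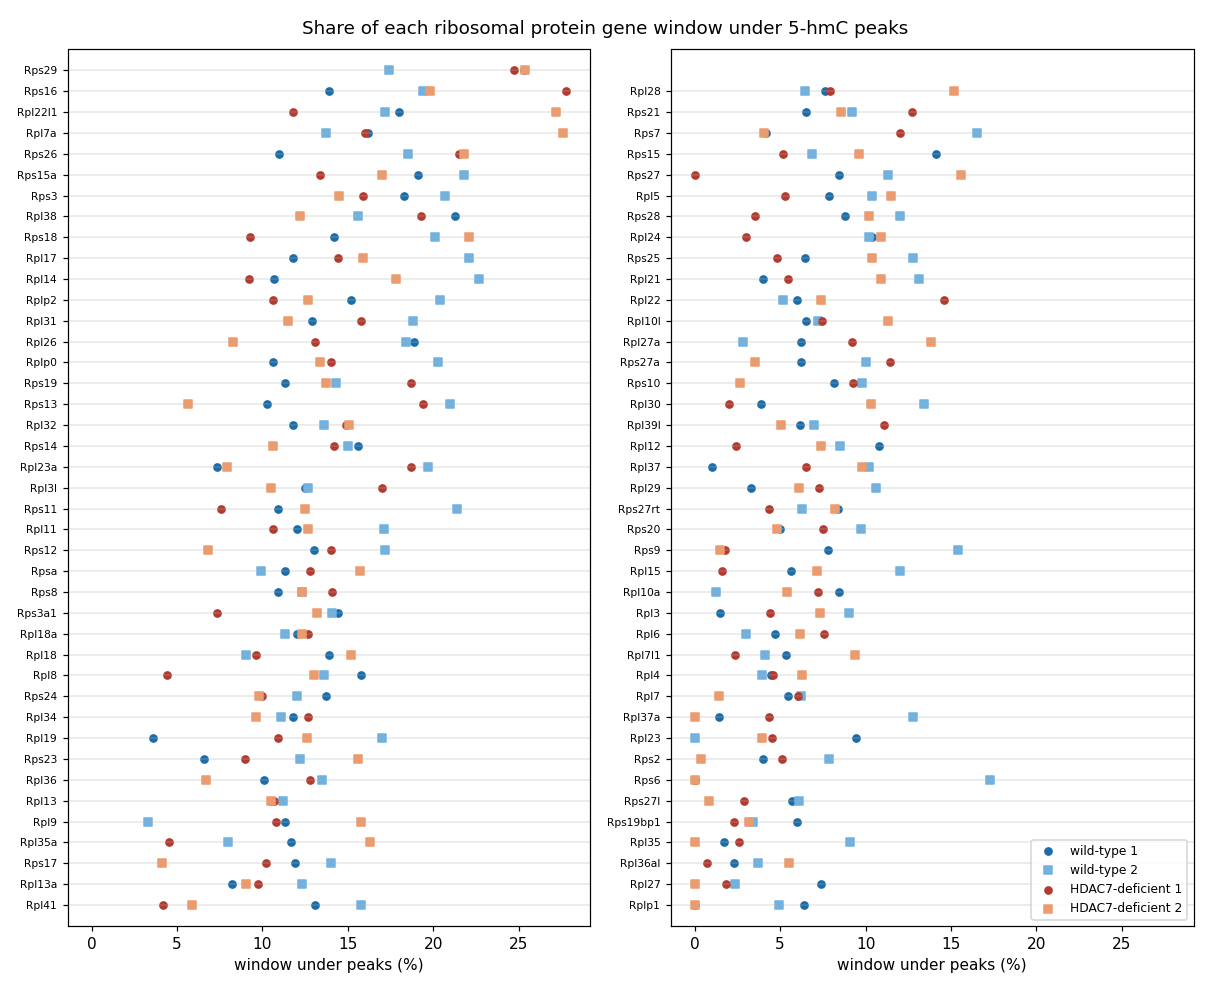
Share of the window under 5-hmC peaks (%, horizontal axis) for 81 of the 82 ribosomal protein genes, ordered by the mean of 4 libraries; blue points are wild-type and red or orange points HDAC7-deficient libraries. Means ran from 2.83% at Rplp1 to 23.2% at Rps29, and the points of 1 gene often spread as widely as the points of different genes.

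The mean share over 4 libraries ranged from 2.83% to 23.2% of the window, with a median of 9.52%. Rps29, a small zinc-binding protein of the small subunit, had the highest mean. It is on chromosome 12 (69157722 to 69159186, minus strand), and 1381, 952, 1349 and 1390 bases of its window lay under peaks. Wild-type library 2 was the low one, and the other 3 libraries lay close together, so the groups overlapped. The stretches that all 4 libraries shared at Rps29 lay past the end of the gene, and its widest peak was 611 bp.

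Rps16, a small-subunit protein near the decoding site, followed with a mean of 20.2%. Its window on chromosome 7 (gene 28350652 to 28353155, plus strand) held 904 and 1260 bases in the wild-type libraries, as against 1809 and 1290 in the HDAC7-deficient ones. The groups did not overlap, but the nearest libraries differed by only 30 bases. A region that runs from upstream into the first exon held peaks of 509, 635, 779 and 473 bases and contained the CpG-rich stretch printed for this gene. Next in order were Rpl22l1, Rpl7a and Rps26, with means of 18.6%, 18.4% and 18.2%. Rpl22l1 is the paralogue of Rpl22, and Rpl7a, a large-subunit protein, carries 3 snoRNA genes.

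At the low end were Rps19bp1 at 3.72%, Rpl35 at 3.35%, Rpl36al at 3.05%, Rpl27 at 2.89% and Rplp1 at 2.83%. Rpl35 and Rpl27 are large-subunit proteins, and both windows held no peak in HDAC7-deficient library 2. Rpl27 held 132 and 0 bases with HDAC7 deficiency and 535 and 170 in wild-type cells. Rpl36al, an autosomal paralogue of the X-linked Rpl36a, held 122, 197, 38 and 295 bases, with no separation of the groups.

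Rplp1, an acidic protein of the stalk that recruits translation factors, had peaks in wild-type libraries alone. It lies on chromosome 9 (61913284 to 61914542, minus strand). Its 5259-bp window held 335 and 260 bases in wild-type and no peak in either HDAC7-deficient library. The wild-type libraries shared 2 regions, a 154-bp region in the last exon with 5 CpG and a 202-bp region upstream that overlaps Kif23. Rps6, the small-subunit protein phosphorylated by the S6 kinases, is on chromosome 4 (86854660 to 86857412, minus strand) and had 3 peaks of 1171 bases in wild-type library 2 and none in the other 3 libraries. The groups overlap at Rps6 because wild-type library 1 also had none. Since peaks are called at a fixed pileup height, a window with no peak may still hold reads below that height.

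**Figure D2:**
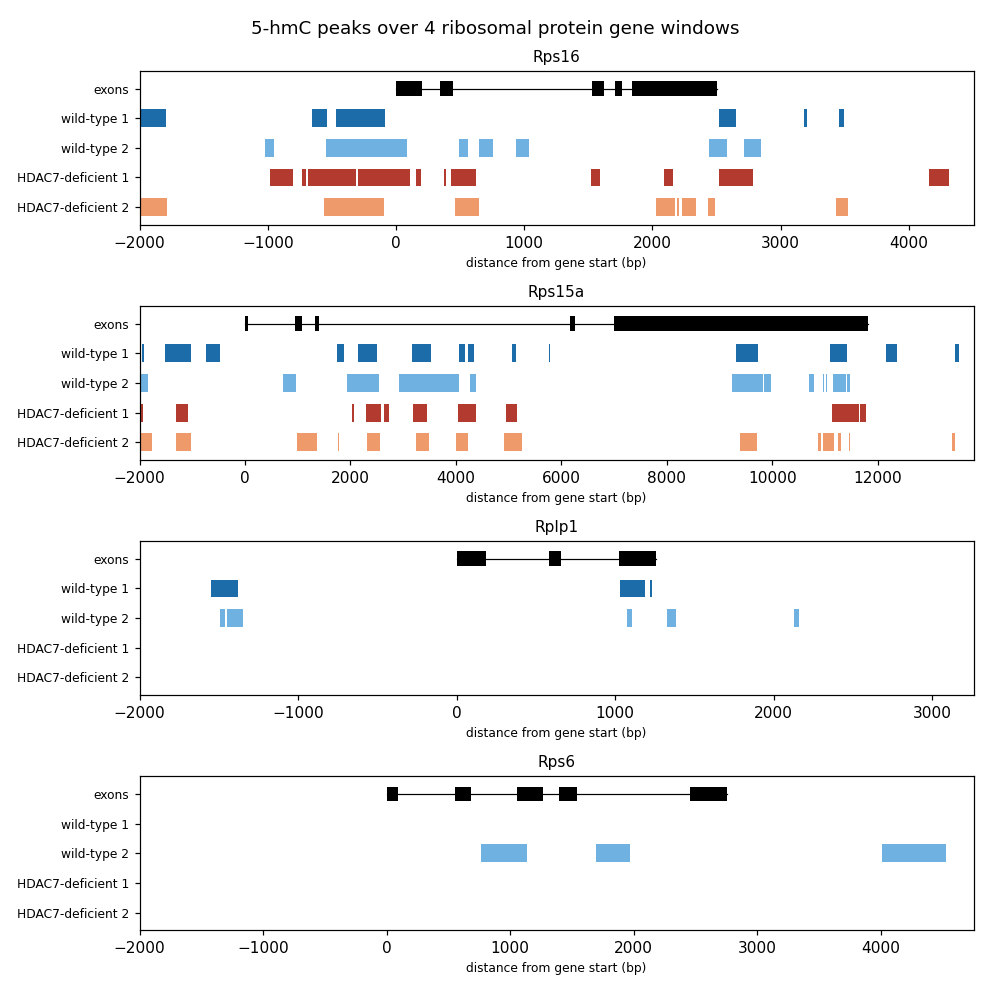
Peaks of each library (coloured bars) and exons of the principal transcript (black) along the windows of Rps16, Rps15a, Rplp1 and Rps6; the horizontal axis is the distance from the gene start in bp, along the direction of transcription. Peaks of all 4 libraries meet just upstream of Rps16 and in the introns of Rps15a, whereas Rplp1 has peaks only in the wild-type libraries and Rps6 only in wild-type library 2.

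The question of the study's comparison was whether loss of HDAC7 changes 5-hmC. Over all 82 genes, HDAC7-deficient libraries had 67027.5 ± 2716 bases under peaks and wild-type libraries 76027 ± 11814.3 (SD, n = 2 each), a ratio of 0.882 ± 0.142 (SD propagated from both groups). The peak count was 421.5 ± 36.1 against 455.5 ± 14.8, a ratio of 0.925 ± 0.0847. The libraries of the groups overlapped on both measures (exact two-sided permutation test, p = 0.667 for each), and 2 against 2 libraries cannot give a p below 0.333. Scaled to all protein-coding genes, the share at ribosomal protein genes was 1.09 ± 0.0698 in wild-type and 0.989 ± 0.0417 in HDAC7-deficient libraries. That ratio was lower in each HDAC7-deficient library than in either wild-type library, 0.909 times (exact permutation p = 0.333, the smallest possible). The nearest libraries were close, at 1.02 in HDAC7-deficient library 1 and 1.04 in wild-type library 1. The groups overlapped on chromosomes 1 to 13 alone (0.937 times), with peaks at least 200 bp wide (0.923) and with the gene body alone (0.892; exact permutation p = 0.667 for each).

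Gene by gene, 12 of 82 genes (14.6%) had more peak bases in each HDAC7-deficient library than in either wild-type library, against 10.6% of all protein-coding genes. Fewer bases in both were found at 17 genes (20.7%), against 17.8% of all protein-coding genes. By peak count, 5 genes (6.1%) were higher, against 11.7% of all coding genes, and 11 (13.4%) were lower, against 11.1%. These shares lie near those of coding genes in general for bases in both directions and for lower counts, and no test of the differences was made. The measures could differ within a gene, as Rpsa had more bases but fewer peaks in both HDAC7-deficient libraries.

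**Figure D3:**
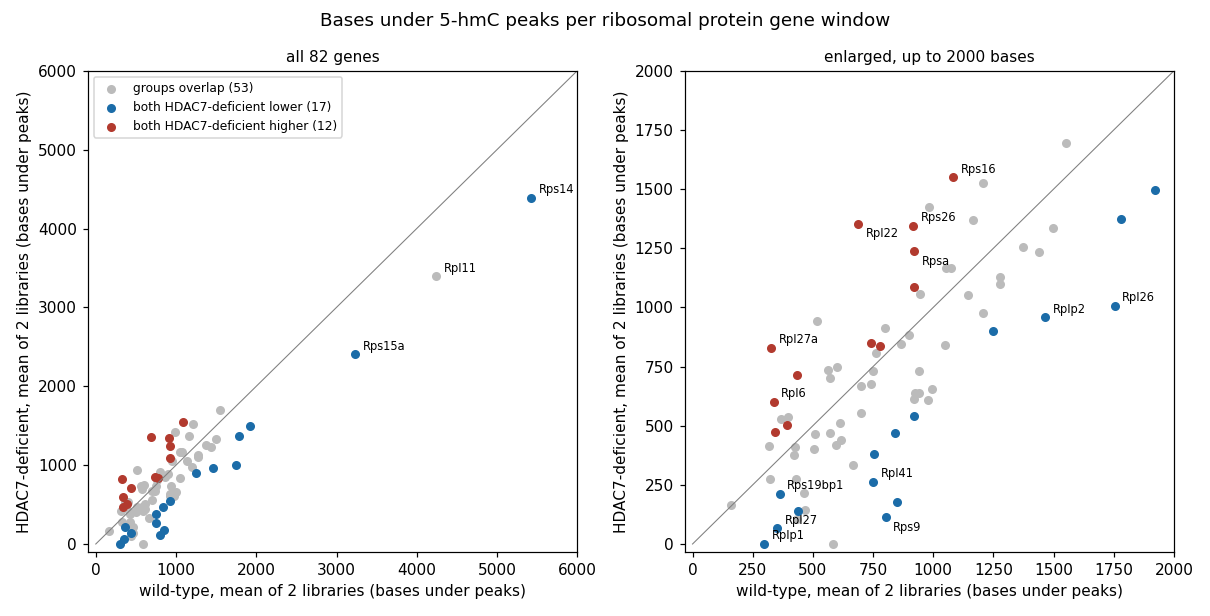
Mean bases under peaks per gene window in the 2 wild-type libraries (horizontal axis) and the 2 HDAC7-deficient libraries (vertical axis), for all 82 genes on the left and enlarged up to 2000 bases on the right; the line marks equal means. Red marks the 12 genes higher and blue the 17 genes lower in both HDAC7-deficient libraries, and grey the 53 genes whose groups overlap.

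Among the 12 genes with more bases in HDAC7-deficient libraries, 7 encode large-subunit proteins, 4 small-subunit proteins and 1 is the paralogue Rpl10l. The widest gap between groups was at Rpl27a, a large-subunit protein on chromosome 7 (109519147 to 109522367). It held 450 and 202 bases in wild-type, then 665 and 993 in HDAC7-deficient libraries. Both HDAC7-deficient libraries had a peak in a 393-bp region past the end of the gene that neither wild-type library had, and this region overlaps the neighbouring gene St5. Rps26, a small-subunit protein at the mRNA exit, held 684, 1147, 1337 and 1353 bases, so the HDAC7-deficient libraries were close together and wild-type library 2 lay nearer to them than to wild-type library 1. The upstream repeat stretch of Rps26 was under peaks of 193 and 313 bases in the wild-type libraries, as against 295 and 498 in the HDAC7-deficient ones.

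Rpl22, a large-subunit protein with a known role in lymphocyte development, is on chromosome 4 (152325742 to 152334071). Its window held 1800 and 908 bases with HDAC7 deficiency and 738 and 636 in wild-type cells. Both HDAC7-deficient libraries had peaks at 2 regions with none in wild-type, the upstream stretch printed for this gene with 76 and 184 bases and an exonic region with 133 and 295 bases. Its paralogue Rpl22l1 held 1078, 1032, 705 and 1630 bases, so its groups overlapped, and had 1 gained and 1 lost region. Rpsa, the small-subunit protein also known as a laminin receptor, held 982, 862, 1113 and 1360 bases in 11, 10, 5 and 8 peaks. Its HDAC7-deficient libraries thus had fewer and wider peaks, the widest being 428 and 397 bp against 211 and 197 bp. Rpl6, a large-subunit protein, held 410, 263, 662 and 539 bases in 4, 2, 3 and 3 peaks.

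The 17 genes with fewer bases comprise 8 of the small subunit, 5 of the large subunit, the stalk genes Rplp1 and Rplp2, the paralogue Rps27l and Rps19bp1. At Rps9, a small-subunit protein needed early in subunit assembly, the values were 539, 1066, 123 and 103 bases, and none of its regions had peaks in both wild-type libraries and in neither HDAC7-deficient library.

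Rpl26, a large-subunit protein near the exit tunnel, held 1775 and 1732 bases in the wild-type libraries, as against 1234 and 781 in the HDAC7-deficient ones. All 4 libraries kept peaks of 658, 652, 446 and 581 bases in a region upstream of Rpl26, which holds a stretch that is mostly repeat. Rpl41, the smallest ribosomal protein, held 680, 822, 217 and 307 bases, and its groups were separated by 373 bases. Rps15a, a small-subunit protein, held 3021, 3448, 2116 and 2692 bases and had the widest peak of the set, 1151 bp in wild-type library 2, within an intron. The widest peaks in the other libraries at Rps15a were 500, 508 and 373 bp.

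Further genes were described for their known roles. Rplp0, the protein to which the acidic stalk proteins bind, held 878, 1676, 1156 and 1103 bases, and wild-type library 2 was the high one. Rplp2, its acidic partner, held 874 and 1041 bases with HDAC7 deficiency and 1249 and 1680 in wild-type cells, without overlap. For the 3 stalk genes together the share was 11.3%, 16.6%, 9.34% and 9.86%, a ratio of 0.687 (exact permutation p = 0.333, the smallest possible).

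Rps19, the gene most often mutated in Diamond-Blackfan anaemia, held 1066, 1347, 1764 and 1291 bases, and Rpl5 held 984, 1301, 663 and 1442. Rpl5 and Rpl11 form a complex with ribosomal RNA that binds Mdm2. Rpl11 has a long window on chromosome 4 (gene 136028265 to 136053428) with 3508, 4980, 3085 and 3703 bases. The groups overlapped at Rps19, Rpl5 and Rpl11. Rps14, linked to the anaemia of a chromosomal deletion syndrome, has the longest window and the most regions shared by all libraries, 8 of 57, with 5541, 5306, 5022 and 3762 bases. It was lower in both HDAC7-deficient libraries, by 284 bases between the nearest ones, and its principal transcript starts more than 500 bp from the gene's outer end.

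Rps27a, made as a fusion with ubiquitin, held 390, 627, 713 and 221 bases. Rpl13a, a large-subunit protein with a role in translational control, held 594, 889, 704 and 652. Rpl3, which lies near the peptidyl transferase centre, held 263, 1629, 792 and 1325 bases. The groups overlapped at all 3 genes, and at Rpl3 the extremes were the 2 wild-type libraries.

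By subunit, the small-subunit genes had shares of 11.5%, 14.6%, 11.2% and 10.4%, so both HDAC7-deficient libraries were below both wild-type libraries (ratio 0.829, exact permutation p = 0.333, the smallest possible). The large-subunit genes had 8.87%, 11.1%, 8.59% and 10%, and their groups overlapped (ratio 0.93, exact permutation p = 0.667). Small-subunit genes had more peak bases per window than large-subunit genes in each of the 4 libraries. The 8 paralogues had 8.19%, 8.1%, 7.88% and 9.44% (ratio 1.06, exact permutation p = 1).

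The 28 genes that hold snoRNA genes, 56 in all, had shares of 8.74%, 12.1%, 9.7% and 10.5%, and the 54 others had 10.3%, 12.3%, 9.31% and 9.77%. Among the snoRNA hosts, 8 (28.6%) had more and 4 (14.3%) fewer bases in both HDAC7-deficient libraries, beside 10.6% and 17.8% of all coding genes. Among the others, 4 (7.41%) had more and 13 (24.1%) fewer. By peak count, 1 snoRNA host (3.57%) was higher and 4 (14.3%) were lower, beside 11.7% and 11.1% of all coding genes. These are small counts whose split was not tested, and the ratio of HDAC7-deficient to wild-type share over all the hosts was 0.969 (exact permutation p = 1). By chromosome, 12 genes (19.4%) had more and 13 (21%) fewer bases among the 62 on chromosomes 1 to 13, beside 10.2% and 19.2% of coding genes there. Of the 20 genes on chromosomes 14 to 19, none had more and 4 (20%) had fewer, beside 11.9% and 13% of coding genes there, and with so few genes nothing is read from this difference. The shares of those 20 genes were 9.44%, 11.3%, 8.19% and 9.45%, so HDAC7-deficient library 2 was not raised at these genes as it was over coding genes of the same chromosomes, at 11.5% against 9.17% to 10.7%.

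Peaks were next merged over libraries into 881 regions in the 82 windows. Of these, 20 (2.27%) had peaks in both HDAC7-deficient libraries and in neither wild-type library, against 2.82% over all protein-coding windows, and 19 (2.16%) showed the reverse, against 2.52%. Peaks of all 4 libraries met in 95 regions (10.8%, against 11.8% over coding windows), while 521 (59.1%, against 54.4%) had a peak in a single library. The 20 gained regions lay at 18 genes and the 19 lost regions at 16. Shared bases over bases in either library ranged from 0.211 to 0.272 over the 6 pairs of libraries. The highest value was for wild-type 1 with HDAC7-deficient 1, ahead of the pairs of the same genotype, at 0.224 for wild-type and 0.243 for HDAC7-deficient libraries.

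Along the gene, exons of ribosomal protein genes had a higher share under peaks than exons of other genes in every library. Peaks covered 8.39%, 13.1%, 8.07% and 10.4% of exon bases, which was 1.13, 1.38, 1.08 and 1.23 times the share in exons of all protein-coding genes (exact sign-flip permutation test of the differences in share, p = 0.125, the smallest possible with 4 libraries, higher in 4 of 4). Introns gave 1.05, 1.24, 1.07 and 0.958 times (p = 0.25 by the same exact permutation test), and the 500 bp on each side of the start gave 0.932, 1.17, 0.992 and 1.29 times (exact permutation p = 0.5). The flanks were close to other genes, at 0.898 to 1.06 times upstream and 0.937 to 1.15 downstream. Exons of these genes had 34.8 CpG per kb against 23.8 in all coding genes. Counted over CpG sites, 7.34%, 11.2%, 7.97% and 9.61% of exonic CpG of these genes lay under peaks, against 8.24%, 9.96%, 8.38% and 8.3% in all coding genes, which is lower in 2 libraries and higher in 2.

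**Figure D4:**
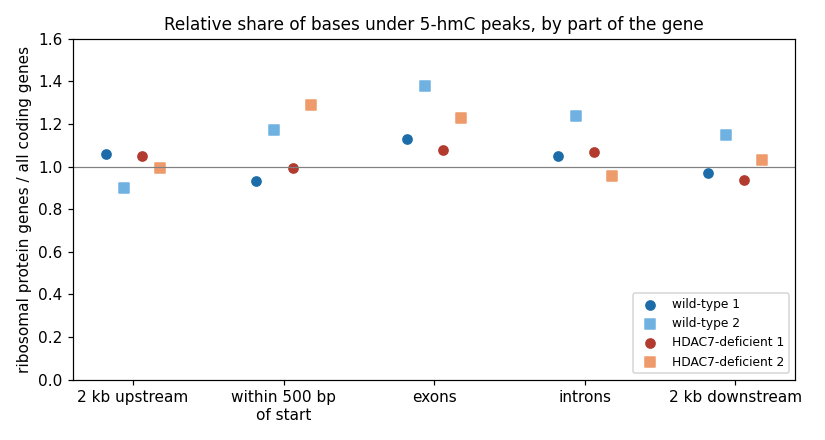
Share of bases under 5-hmC peaks at the 82 ribosomal protein genes divided by the share at all protein-coding genes (vertical axis), for 5 parts of the gene; each point is a library and the grey line marks equality. Exons lie above the line in all 4 libraries, at 1.08 to 1.38, while near the start the libraries lie on both sides of it.

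Start sites of these genes were CpG-rich. The ratio of observed to expected CpG within 500 bp of the start had a median of 0.812 against 0.584 for all protein-coding genes, and was above 0.6 at 92.7% of them against 48.7%. At 16 genes (19.5%, against 18.9% of coding genes) a peak lay within 500 bp of the start of the principal transcript in all 4 libraries, among them Rps16, Rps19, Rplp0, Rpl26 and Rpl22l1. At 11 genes (13.4%, against 22.1%) no library had one. Within 500 bp of the gene start, 8.42%, 13.3%, 9.78% and 12% of bases were under peaks, and relative to the whole window the density was 0.972 ± 0.161 in wild-type and 1.12 ± 0.12 in HDAC7-deficient libraries (SD, n = 2; exact permutation p = 0.667). In all coding genes, the 200 bp after the start had less peak coverage than the flanks in every library, at 8.37% to 10.7%. In the ribosomal protein genes that bin was at 8.52%, 14.5%, 9.58% and 16.8%, and the bin from 400 to 200 bp before the start, the lowest upstream bin by the mean of 4 libraries, was at 5.76%, 10.3%, 6.25% and 7.13%. In wild-type library 2 other upstream bins were lower, down to 4.59%.

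**Figure D5:**
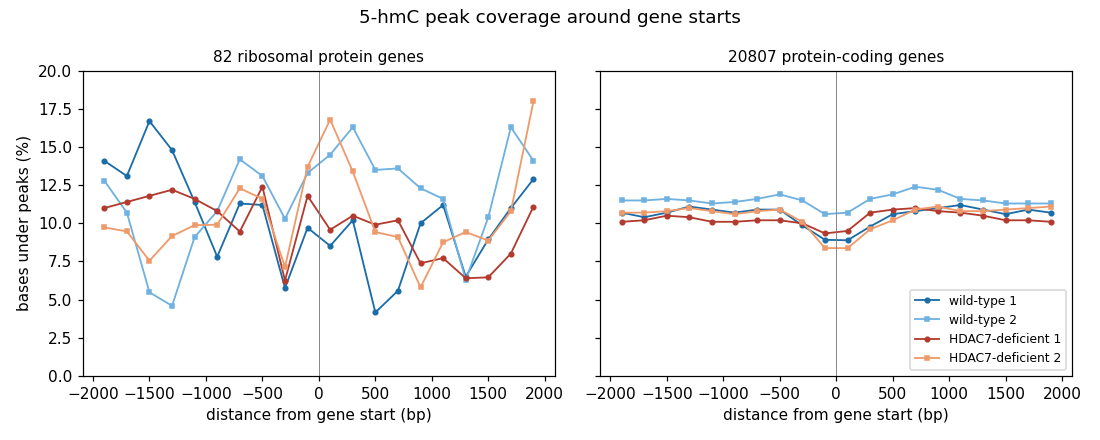
Share of bases under 5-hmC peaks (%, vertical axis) in 200-bp bins around the gene start (horizontal axis, bp), for the 82 ribosomal protein genes on the left and all 20807 protein-coding genes on the right; each line is a library. Coding genes dip smoothly at the start, while the 82 genes give jagged lines, with wide spread between libraries and a bin between 400 and 200 bp before the start that is low in 3 libraries but not in wild-type library 2.

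Promoters of 62 of the 82 genes were matched by symbol in a table of RefSeq promoters of the mouse genome, which runs from 250 bases before to 50 after the start. The letters CCGGAAG, the core bound by ETS factors, were found on either strand in 38.7% of them against 12.5% of 15687 coding promoters. The letters ATGGCGG, as bound by YY1, were in 16.1% against 5.6%, GGGCGG, the GC box, in 59.7% against 48.6%, and TATAAA in 6.45% against 12.9%. The letters CTTT on the sense strand around the start, between 5 bases before and 15 after it, were in 27.4% against 6.55%. The mRNAs of these genes begin with a pyrimidine tract, but whether the matched letters lie in it was not checked. The ETS, YY1 and GC box letters each hold a CpG, and no comparison was made with CpG-rich promoters alone. These are matches of letters only.

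Other genes of ribosome production and translation were counted in the same way, beside the 10.6% and 17.8% of all coding genes with more and fewer bases. Of 78 mitochondrial ribosomal protein genes, 7 (8.97%) had more and 16 (20.5%) fewer peak bases in both HDAC7-deficient libraries. Of 55 translation factor genes, 5 (9.09%) had more and 16 (29.1%) fewer bases, and of 58 ribosome biogenesis genes, 4 (6.9%) had more and 8 (13.8%) fewer. By peak count, 11.7% of all coding genes were higher and 11.1% lower. The mitochondrial genes had 9 (11.5%) higher and 14 (17.9%) lower by count. Translation factors had 6 (10.9%) and 8 (14.5%), and biogenesis genes 5 (8.62%) and 2 (3.45%). In the same order of lists, the ratios of HDAC7-deficient to wild-type share were 0.917, 0.93 and 1. Among ribosomal proteins whose symbols do not meet the rule, Fau had fewer bases in both HDAC7-deficient libraries, with 637, 720, 213 and 328, whereas the groups overlapped at Rack1. No test between these lists was made.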

How the data were processed

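5-hmC was measured by hMeDIP-seq in 2 wild-type and 2 HDAC7-deficient libraries of pro-B cells. The labels give a fragment size of 350 bp. The authors trimmed reads (Trim Galore version 0.4.2, with version 1.6 of Cutadapt), removed duplicates and ran the MACS2 command bdgpeakcall on every library by itself (cutoff 250, minimum length 10, maximum gap 10), then left out peaks that met input peaks. The methods name bwa as the aligner, whereas the submitters' processing notes name Bowtie2. The deposited lists are mm10 peak positions, counted from 0, without heights, counts or p-values. A fixed height called on libraries of unknown depth lets depth change the number and width of peaks.

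Windows were the GENCODE M21 gene record with 2 kb on each side; an overlap of 1 base counted. Regions were merged from all 4 libraries. Start sites were the ends of gene records for the coverage profile and for the density within 500 bp of the gene start. Principal transcripts (APPRIS tag, then length) gave the parts of the gene, among them the 500 bp on each side of the start. They also gave the CpG ratio and the genes with and without a peak near the start, so shares near the start differ between the definitions. Groups were compared by exact two-sided permutation over the 6 arrangements of libraries. Differences in share from coding genes, in percentage points within each library, were tested by exact sign-flip over 16 sign patterns. A gene was called higher or lower when both HDAC7-deficient libraries lay on the same side of both wild-type libraries. Counting was tested on simulated peaks. Python 3.11.15, NumPy 2.4.6, pysam 0.24.0 and samtools 1.23.1 were used.

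The members, the other gene lists and the tests were chosen with earlier results of these data known. Genes were named by a rule: the 5 highest and 5 lowest by mean share of the window under peaks, the 5 with the widest gap between groups in each direction, 14 genes of known role, the gene with the widest peak and that with the most regions shared by 4 libraries. A gene that this rule names is not reported here. Fau, and genes named in lists of counts, fall outside it and were named after their values were seen. The study's own differential test used reads and was not repeated. Alternatives were peak width, window size, merging of nearby peaks, chromosomes, the member rule, scaling, assignment, background, overlap, leaving out each library and a replicate block. No cell-type marker check was made, as 5-hmC peaks do not measure expression.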

Additional observations from a re-analysis of the deposited data

How the results depend on the processing

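The ratios of peak bases, of peak count, of share relative to coding genes and of start-site density kept their direction and did not pass the test under any alternative, as 2 against 2 libraries cannot. For the share relative to coding genes, the separation of the groups was lost on chromosomes 1 to 13, with peaks at least 200 bp wide and with the gene body alone. Leaving out each library in turn gave ranges of 0.794 to 0.99, 0.869 to 0.981, 0.869 to 0.952 and 1.03 to 1.3. Counts have no direction of their own and moved more. The balance of gained and lost regions was 20 to 19. It became 19 to 20 with peaks at least 200 bp wide and 12 to 13 with the gene body alone. Leaving out Rps19bp1 and the paralogues other than Rps27rt, which kept 74 genes, gave 14 to 16. The balance of genes with more and fewer bases, 12 to 17, became 24 to 22 without wild-type replicate 2. With the gene body alone, 7 genes had more bases in both HDAC7-deficient libraries and 12 regions were gained. With 10 kb on each side, 61 regions were gained and 56 lost, since the windows were longer. On chromosomes 1 to 13 alone, 13 were gained and 12 lost, since fewer genes were counted. Leaving out a library, which asks for separation of fewer libraries, gave 18 to 25 genes with more and 22 to 46 with fewer bases, and 46 to 157 gained and 45 to 191 lost regions.

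The labels give the groups the same replicate numbers without saying that they mark a pair. The deviations of same-numbered libraries from their group means correlated at 0.0918 over 20807 coding genes and at -0.144 over the 82 ribosomal protein genes. With the replicate block the 4 ratios were 0.887, 0.924, 0.909 and 1.16; no p was computed for them, and no blocked fit was made for the counts of genes and regions.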

Other observations

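The 4 ribosomal protein genes on the X chromosome were unevenly covered, from no base up to 12.1% of the window at Rps4x in wild-type library 2. The chromosome as a whole was sparsely covered in 3 of 4 libraries. Rpl10, a large-subunit protein that joins late in assembly, held 72 and 0 bases under peaks in the wild-type libraries, whereas the HDAC7-deficient ones held 236 and 606. Rpl36a held 0, 129, 0 and 130 bases and Rpl39 held 0, 176, 84 and 484. Rps4x, a small-subunit protein, held 1022 bases in wild-type library 2, 306 in HDAC7-deficient library 2 and none in the other libraries. HDAC7-deficient library 2, whose peaks covered 11% of the X chromosome against 4.01% to 6.39% in the other libraries, was the highest at Rpl10, Rpl36a and Rpl39, and its part in these values was not tested.

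Among 249 annotated pseudogenes of ribosomal protein genes, with a median length of 462 bp, 45, 61, 52 and 53 overlapped a peak in the 4 libraries. Peaks covered 5.48%, 7.59%, 4.97% and 7.07% of their bases. The shares of exon bases of the 82 genes were 8.39%, 13.1%, 8.07% and 10.4%, higher in all 4 libraries. Pseudogenes were taken as whole bodies without flanks, and whether reads map uniquely to these copies was not checked. The difference was not tested. Of the 6 protein-coding symbols with -ps, Rpl36-ps4 held 168 and 24 bases in the wild-type libraries, as against 492 and 445 in the HDAC7-deficient ones, and the groups overlapped at the other 5.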
